A study of Homo sapiens with 18 samples.

Results

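This comparison sets siRNA against CHD4 (siCHD4) beside a control siRNA in SW48 cells that had already received siRNA against DNMT1 (siDNMT1), and it rests on 6 of the 18 RNA sequencing libraries of the series, chosen by their titles. SW48 is an established line from a human colon adenocarcinoma. The 3 control libraries come from cells given siDNMT1 on days 1, 3 and 5 and control siRNA on days 7 and 8. The 3 siCHD4 libraries come from cells given the same siDNMT1 course and siCHD4 on days 7 and 8. Both groups were harvested on day 11. The siDNMT1 course is therefore common to both groups, and each difference below is one of siCHD4 added to it. DNMT1 levels are given below for these groups only, so its depletion on day 11 is not shown here. The other 12 libraries hold control siRNA and siCHD4 given alone (siRNA on days 1, 3 and 6, RNA on day 8) or with 50 nM decitabine (decitabine on days 1, 2 and 3, siRNA on days 1 and 2, RNA on day 5). They enter here through the estimate of the spread and where the siCHD4 effect is set beside that in another background, whose schedule differs. An siRNA lowers a transcript for a time and leaves the gene intact, so both groups model partial depletion at most. Nothing in the labels says that the libraries of a group are separate cultures, so the p-values measure the spread between libraries, which may be technical.

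CHD4 is the ATPase of NuRD, a complex that slides nucleosomes and, through HDAC1 and HDAC2, removes acetyl groups from histones. DNMT1 copies CpG methylation onto the new DNA strand after replication, and cells that lack it lose methylation as they divide. In somatic cells many germ cell genes are kept silent by methylation of CpG-rich promoters, and NuRD can be brought to methylated CpG by its MBD2 subunit.

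Levels are FPKM, fragments scaled to transcript length and to the mapped fragments of the library, and changes are differences of log2(FPKM + 1), which understate the fold change of low genes. A gene is called higher or lower at a Benjamini-Hochberg adjusted p below 0.05 in limma, over 12809 tested genes, those that reached 1 FPKM or more in no fewer than 3 of the 18 libraries. The targeted transcript differed as the labels say. CHD4 (chr12:6679248-6723690, GRCh37) stood at 63.7, 67.1 and 73.9 FPKM in the control libraries and 29, 27.1 and 29.1 FPKM in the siCHD4 libraries, with no overlap (log2 change -1.24 ± 0.14 (SE), adjusted p = 7.64e-06; exact two-sided permutation p = 0.1, the smallest that 3 against 3 libraries can give). DNMT1 stood at 11.2, 12.2 and 13.5 FPKM in the control libraries and 12.6, 11 and 12.8 FPKM in the siCHD4 libraries, and the groups overlapped (log2 change -0.02 ± 0.11, adjusted p = 0.893). Its change had the opposite sign, and was still not called, with library weights, after median-ratio rescaling, and without siCHD4 replicate 1 or control replicate 2. The epithelial gene EPCAM had 215, 210.4 and 205 FPKM in the control libraries and 212, 244 and 224 FPKM in the siCHD4 libraries, and CDX2, a transcription factor of the intestine, had 44.2, 42.9 and 46.6 FPKM in the control libraries and 65.7, 68.8 and 64.6 FPKM in the siCHD4 libraries (log2 change 0.57 ± 0.13 (SE), adjusted p = 0.00303). The colon genes CDX1 and FABP1 were listed at 0 in all 6 libraries.

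The 6 libraries were alike in depth: the worth of 1 fragment, read from the steps between low values, lay between -0.19 and 0.13 on the log2 scale relative to control replicate 0. Between 11788 and 11836 genes reached 1 FPKM in the control libraries and between 12434 and 12502 in the siCHD4 libraries. Correlations of log2 levels across genes were 0.964 to 0.974 within a group and 0.921 to 0.941 between groups. The 10 most abundant genes held 36.4% to 40.2% of the FPKM total of a library. That total was 1052993 to 1174619 in the control libraries and 940102 to 987822 in the siCHD4 libraries, with no overlap. The summed levels of gene lists below are not scaled to it.

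siCHD4 changed a large share of the transcriptome in these cells: 3175 genes were called higher (24.8% of those tested) and 3148 lower (24.6%). Large changes leaned upward, with 615 genes higher by at least 1 on the log2 scale (4.8%) and 171 lower by as much (1.33%). The libraries of the groups did not overlap for 4317 genes that were higher (33.7%) and 4667 that were lower (36.4%). Both counts stayed within 1.5 times under each alternative run and each left-out library. Because close to 1 in 4 genes is called in each direction, the count for any gene list below is to be read against 24.8% and 24.6%, and its median against -0.01 over all tested genes. These shares also went with the mean level in the control libraries. Between 0.5 and 5 FPKM 38.7% of tested genes rose and 6.83% fell, and between 20 and 100 FPKM 12.2% rose and 41.3% fell. At 100 FPKM or more 5.9% rose and 50.2% fell. No list was matched for level, so a lean of low genes upward or of abundant genes downward is partly background. In RNA from whole cultures, fewer cells of a kind and less RNA per cell cannot be told apart.

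**Figure D1:**
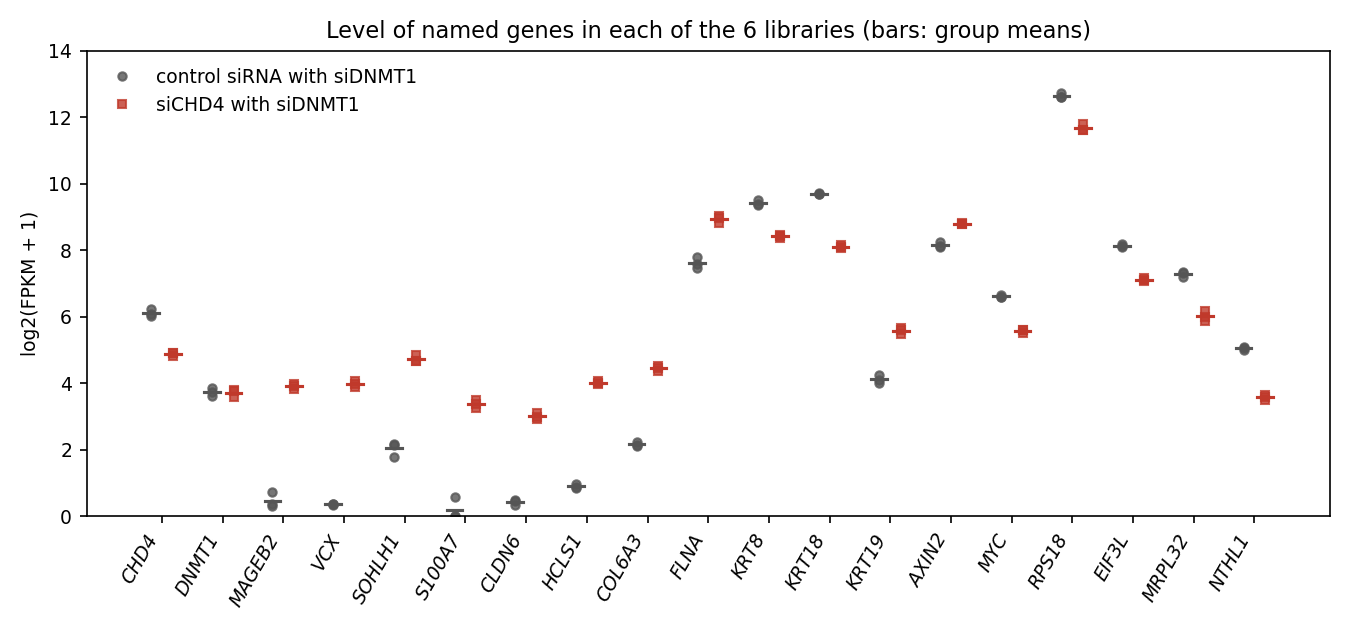
Levels of 19 genes named in the text, as log2(FPKM + 1), in the 3 control siRNA libraries (grey circles) and the 3 siCHD4 libraries (red squares), all with siDNMT1; short bars are group means. CHD4 fell, DNMT1 overlapped between the groups, and genes near 0 in the control libraries such as MAGEB2 and VCX stood near 4 in the siCHD4 libraries.

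Many germ cell genes that were at or near 0 with siDNMT1 stood higher once siCHD4 was added. Of 24 MAGE family genes listed, 14 were tested, and 14 were called higher with a median of 1.74. None was called higher with siCHD4 alone, where 9.58% of tested genes were, and 13 were with decitabine, where 3.26% were. Of 92 other X-linked cancer-testis genes listed, 24 were tested, and these 24 were called higher with a median of 1.74; 2 were called higher with siCHD4 alone and 21 with decitabine. The filter decides which of these genes are tested: 41 of the 92 and 6 of the 24 MAGE genes were listed at 0 in all 6 libraries, and a silent gene passes mainly through the groups in which it is high, so it had to differ. With a filter of 5 FPKM, fewer members are tested and the counts were 6 and 12. On the autosomes, 96 germline and meiosis genes were listed and 44 tested, and the filter limits their count in the same way. Of the 44, 31 rose and 4 fell, with a median of 0.54 (5 rose with siCHD4 alone and 13 with decitabine). The 4 that fell, named after their values were seen, were MEIOB, PLD6, SYCE2 and ZP3, with log2 changes of -0.72, -0.53, -0.71 and -0.99. SYCE2, a synaptonemal complex protein, lost its call after median-ratio rescaling (adjusted p = 0.0527), with no filter (0.0688), and without any one siCHD4 replicate or control replicate 0 or 1 (0.0609 to 0.14). MEIOB lost its call once length and GC trends were removed (adjusted p = 0.0772). The autosomal count was 22 higher and 7 lower after quantile normalization, 13 higher with the 5 FPKM filter and 49 higher with no filter.

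The 4 promoter windows below show the DNA in front of genes that were near silent or low with siDNMT1 and rose with siCHD4: a germ cell gene on the X chromosome, an autosomal germ cell gene, an embryonic claudin and a keratinocyte gene. Each holds 250 bases before and 50 after the annotated start in RefSeq (GRCh38.p14), written 5′ to 3′ on the gene's strand with each CpG in capitals.
MAGEB2, chrX:30215313-30215612, plus strand: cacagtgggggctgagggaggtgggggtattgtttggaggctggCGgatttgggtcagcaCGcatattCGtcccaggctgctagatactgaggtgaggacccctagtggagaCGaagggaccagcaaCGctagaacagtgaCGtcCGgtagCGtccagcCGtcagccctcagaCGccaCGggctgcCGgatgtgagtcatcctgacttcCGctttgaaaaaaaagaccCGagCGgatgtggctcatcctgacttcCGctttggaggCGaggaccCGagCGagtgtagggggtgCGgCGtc
SOHLH1, chr9:135699432-135699731, minus strand: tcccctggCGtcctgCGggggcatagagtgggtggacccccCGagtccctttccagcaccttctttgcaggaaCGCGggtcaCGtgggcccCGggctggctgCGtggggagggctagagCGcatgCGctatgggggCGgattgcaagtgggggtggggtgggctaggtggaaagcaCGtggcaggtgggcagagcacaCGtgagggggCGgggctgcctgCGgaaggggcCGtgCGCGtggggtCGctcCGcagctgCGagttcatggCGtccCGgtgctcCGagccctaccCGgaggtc
CLDN6, chr16:3018134-3018433, minus strand: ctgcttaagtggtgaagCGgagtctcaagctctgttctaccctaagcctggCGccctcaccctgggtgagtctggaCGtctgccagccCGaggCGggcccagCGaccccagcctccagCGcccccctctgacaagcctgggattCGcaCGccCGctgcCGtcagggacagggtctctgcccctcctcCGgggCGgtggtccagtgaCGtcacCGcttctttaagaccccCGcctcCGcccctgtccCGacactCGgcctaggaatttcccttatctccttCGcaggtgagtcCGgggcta
S100A7, chr1:153460602-153460901, minus strand: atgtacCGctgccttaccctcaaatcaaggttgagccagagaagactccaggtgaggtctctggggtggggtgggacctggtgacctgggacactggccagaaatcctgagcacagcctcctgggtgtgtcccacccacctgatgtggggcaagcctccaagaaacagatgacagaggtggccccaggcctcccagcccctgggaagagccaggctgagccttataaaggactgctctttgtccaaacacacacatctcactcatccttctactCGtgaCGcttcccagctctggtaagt
MAGEB2 and CLDN6 have 21 CpG in the window, SOHLH1 has 25 and S100A7 has 3, beside a median of 14 and quartiles of 3 and 28 over 27195 such windows. All 4 counts thus lie at or above the lower quartile and below the upper. No comparison over all called genes was made, since 78.5% of tested genes and 68.3% of the 287 called higher from a control mean under 0.5 FPKM matched a window. DNA methylation was not measured in these libraries.

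MAGEB2, a cancer-testis antigen of the MAGE family (chrX:30233680-30238206, GRCh37), stood at 0.293, 0.645 and 0.233 FPKM in the control libraries and 13.1, 14 and 14.7 FPKM in the siCHD4 libraries (log2 change 3.44 ± 0.27 (SE), adjusted p = 2.01e-07). VCX, a testis gene of the X chromosome, stood at 0.271, 0.298 and 0.287 FPKM in the control libraries and 14.9, 15.6 and 13.7 FPKM in the siCHD4 libraries (log2 change 3.61 ± 0.13 (SE), adjusted p = 1.3e-10). VCX3A, its close copy, had 0.131, 0 and 0 FPKM in the control libraries and 9.55, 11.1 and 11.5 with siCHD4. Neither gene's groups overlapped, and reads of the VCX copies may have been shared between them in the authors' processing. SSX1, also a cancer-testis gene with near-identical relatives, stood at 2.17, 2.71 and 1.77 FPKM in the control libraries and 18.9, 18.8 and 17.4 FPKM in the siCHD4 libraries (log2 change 2.60 ± 0.19 (SE), adjusted p = 1.45e-07).

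SOHLH1, a transcription factor of early germ cells (chr9:138585253-138596344), stood at 3.50, 2.44 and 3.45 FPKM in the control libraries and 24.5, 28 and 24.4 FPKM in the siCHD4 libraries (log2 change 2.70 ± 0.26 (SE), adjusted p = 1.76e-06). GTSF1, a factor of the piRNA pathway that represses transposons in germ cells, had 1.02, 3.56 and 3.79 FPKM in the control libraries and 14.9, 15.7 and 11 FPKM in the siCHD4 libraries (log2 change 2.06 ± 0.25 (SE), adjusted p = 1.77e-05). TEX101, a surface protein of testicular germ cells, had 0.374, 0.702 and 0.475 FPKM in the control libraries and 6.12, 6.99 and 6.04 FPKM in the siCHD4 libraries (log2 change 2.29 ± 0.18 (SE), adjusted p = 1.98e-07). For these 3 genes the siCHD4 libraries all lay above the control libraries, and control replicate 0 was the lowest of its group for GTSF1. TEX19, another germ cell gene, went from 0.357, 0.327 and 0.378 FPKM to 54.6, 63.1 and 53.6 FPKM (log2 change 5.42 ± 0.21 (SE), adjusted p = 1.9e-10), but with siCHD4 alone its change was 5.47, and the difference between the effects was -0.05 (adjusted p = 0.947).

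Genes of other lineages also rose from near 0. HBE1, the embryonic beta-like globin, was listed at 0 in control replicates 0 and 1 and at 0.179 FPKM in replicate 2, and stood at 13.2, 10.6 and 10.9 FPKM with siCHD4 (log2 change 3.57 ± 0.16 (SE), adjusted p = 9.92e-10). HCLS1, a regulator of actin in blood cells (chr3:121350246-121379774), stood at 0.958, 0.806 and 0.835 FPKM in the control libraries and 14.7, 15.8 and 15 FPKM in the siCHD4 libraries (log2 change 3.11 ± 0.16 (SE), adjusted p = 2.91e-09). S100A7, psoriasin of the skin (chr1:153430220-153433127), was listed at 0, 0.492 and 0 FPKM and stood at 8.59, 9.35 and 10.1 FPKM with siCHD4 (log2 change 3.18 ± 0.17 (SE), adjusted p = 8.82e-09). CLDN6, a claudin of embryonic epithelia (chr16:3064713-3070072), stood at 0.266, 0.390 and 0.375 FPKM in the control libraries and 7.57, 6.57 and 6.95 FPKM in the siCHD4 libraries (log2 change 2.58 ± 0.17 (SE), adjusted p = 4.8e-08). DYDC2 stood at 0.225, 0 and 0.144 FPKM in the control libraries and 9.03, 11.3 and 8.96 FPKM in the siCHD4 libraries (log2 change 3.26 ± 0.19 (SE), adjusted p = 1.55e-08). In none of these 5 genes did the groups overlap.

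The defining genes of blood were at or near 0 beside HBE1 and HCLS1. Of 47 blood cell markers 12 were tested, of which 8 rose, and CORO1A fell (-0.63; not called without siCHD4 replicate 1, adjusted p = 0.0634). The limit that the filter sets on the count of cancer-testis genes holds for this count too. Their summed level was 16.3 to 17.5 FPKM in the control libraries and 43.3 to 50.2 FPKM in the siCHD4 libraries. The adult beta globin HBB and the lymphocyte and myeloid genes CD3D, MS4A1 and TYROBP were among 12 markers listed at 0 in all 6 libraries, and 34 stayed below 1 FPKM in each. Of 13 endothelial markers only EGFL7 was tested, and it rose (44.1 to 89.8 FPKM), while the other 12 stayed below 1 FPKM. Of 12 neural and glial markers 3 were tested and none was called, with SOX2 and OLIG1 at 0 throughout.

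Of 66 collagens, laminins and other matrix genes 37 were tested, of which 31 were higher and 3 were lower, with a median of 1.14 (17 were higher with the 5 FPKM filter). As with the cancer-testis genes, members near 0 in the control libraries pass the filter mainly through the libraries in which they are high. With siCHD4 alone 9 of them were called higher, and with decitabine 9. COL6A3, a chain of collagen VI, stood at 3.28, 3.67 and 3.41 FPKM in the control libraries and 22, 19.7 and 20.9 FPKM in the siCHD4 libraries (log2 change 2.30 ± 0.16 (SE), adjusted p = 6.04e-08). COL9A3, a chain of the cartilage collagen IX, had 0.542, 0.894 and 1.10 FPKM in the control libraries and 4.99, 5.05 and 4.89 FPKM in the siCHD4 libraries (log2 change 1.71 ± 0.13 (SE), adjusted p = 1.46e-07). AEBP1, a collagen-binding protein of the matrix, had 0.903, 0.993 and 1.26 FPKM in the control libraries and 10.8, 8.13 and 11.7 FPKM in the siCHD4 libraries (log2 change 2.44 ± 0.14 (SE), adjusted p = 1.29e-08). In all 3 genes the groups were far apart, and AEBP1 and COL6A3 were lowest in siCHD4 replicate 1 among the siCHD4 libraries.

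LAMA3, a chain of the laminin that anchors epithelia, went from 18.6, 19 and 17.9 FPKM to 44.5, 46.3 and 42.4 FPKM (log2 change 1.22 ± 0.08 (SE), adjusted p = 6.26e-08). COL1A1, a chain of the fibroblast collagen I, reached only 2.63, 1.54 and 2.76 FPKM from 0.0719, 0.0791 and 0.228 FPKM (log2 change 1.54 ± 0.16 (SE), adjusted p = 4.53e-06). The 3 matrix genes that fell were THBS1 (79, 81.2 and 79 FPKM in the control libraries and 60.8, 56.6 and 61.2 FPKM in the siCHD4 libraries; log2 change -0.41 ± 0.08 (SE), adjusted p = 0.000458), and LAMA4 and LOXL1, with log2 changes of -0.64 and -0.57, the last pair named after their values were seen. LAMA4 was not called without siCHD4 replicate 1 (adjusted p = 0.0735) or control replicate 2 (0.0502).

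Of 18 fibroblast markers, a list that shares collagen genes with the matrix list, 9 were tested, of which 7 rose and S100A4 fell. The limit that the filter sets on the matrix count holds for this count too. S100A4, a calcium-binding protein, holds most of the summed level of that list, at 2225, 2013 and 2202 FPKM in the control libraries and 872, 839 and 868 FPKM in the siCHD4 libraries (log2 change -1.32 ± 0.10 (SE), adjusted p = 1.14e-07). Without S100A4 the sum was 105 to 126 FPKM in the control libraries and 183 to 201 FPKM in the siCHD4 libraries. COL3A1, PDPN and POSTN were listed at 0 in all 6 libraries, and FAP, PDGFRA, PDGFRB and COL1A2 stayed below 1 FPKM.

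Of 57 tested genes of the actin and microtubule cytoskeleton 29 rose and 3 fell, with a median of 0.42. FLNA, the widespread actin crosslinker, stood at 192, 176 and 222 FPKM in the control libraries and 517, 447 and 505 FPKM in the siCHD4 libraries (log2 change 1.32 ± 0.16 (SE), adjusted p = 1.69e-05). FLNC, the muscle filamin, stood at 0.794, 0.811 and 1.21 FPKM in the control libraries and 9.09, 7.56 and 8.57 FPKM in the siCHD4 libraries (log2 change 2.28 ± 0.13 (SE), adjusted p = 1.03e-08). MYL9, a regulatory light chain of myosin II, stood at 4.99, 4.92 and 7.07 FPKM in the control libraries and 29.5, 28 and 28.8 FPKM in the siCHD4 libraries (log2 change 2.17 ± 0.28 (SE), adjusted p = 2.45e-05). The groups were apart for each of these 3 genes. The 3 that fell, named after their values were seen, were EZR, TPM1 and TUBGCP5 (-0.26, -0.26 and -0.53). Of these TUBGCP5 kept its call in each alternative, and 1 gene was lower without siCHD4 replicate 0 or 2 or any one control replicate, after median-ratio rescaling or with the replicate block. The count of 3 was 9 in the fit on the 6 libraries alone, 10 with library weights and 5 after quantile normalization or with length and GC trends removed.

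Among epithelial junction genes 24 of 40 tested rose and 3 fell, with a median of 0.37. PPL, periplakin of desmosomes, stood at 9.92, 10.7 and 12.4 FPKM in the control libraries and 49.9, 46.2 and 53.9 FPKM in the siCHD4 libraries (log2 change 2.09 ± 0.14 (SE), adjusted p = 6.26e-08). CDH1, E-cadherin, rose from 54.9 to 108 FPKM (log2 change 0.97 ± 0.19 (SE), adjusted p = 0.000667), and DSP, desmoplakin, rose from 71.3 to 137 FPKM (log2 change 0.93 ± 0.17 (SE), adjusted p = 0.000573). BCAM, a receptor for laminin, stood at 10.7, 11.2 and 12.7 FPKM in the control libraries and 59.8, 55.4 and 61 FPKM in the siCHD4 libraries (log2 change 2.26 ± 0.32 (SE), adjusted p = 5.44e-05). Of 12 tested integrins 5 rose, among them ITGA7, a laminin receptor chain (3.99, 3.97 and 4.56 FPKM in the control libraries and 17.4, 16.9 and 17.4 FPKM in the siCHD4 libraries; log2 change 1.82 ± 0.21 (SE), adjusted p = 9.49e-06), and 9 rose in the fit on the 6 libraries alone or with library weights. The junction genes that fell were GJA1, connexin 43 (6.37, 7.09 and 6.63 FPKM in the control libraries and 2.60, 3.68 and 3.07 FPKM in the siCHD4 libraries; log2 change -0.91 ± 0.13 (SE), adjusted p = 6.73e-05), CLDN3 (-0.73) and F11R (-0.24), the last named after its values were seen. CLDN3 was not called without siCHD4 replicate 0 or 1 or control replicate 2 (adjusted p = 0.0624 to 0.0989), and F11R not after quantile normalization (adjusted p = 0.361). In the fit on the 6 libraries alone or with library weights 7 junction genes fell.

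Keratins split. KRT8 and KRT18, the paired filament proteins of simple epithelia, fell. KRT8 stood at 667, 653 and 722 FPKM in the control libraries and 349, 342 and 329 FPKM in the siCHD4 libraries (log2 change -0.999 ± 0.13 (SE), adjusted p = 3.02e-05), and KRT18 at 839, 819 and 825 FPKM in the control libraries and 267, 283 and 272 FPKM in the siCHD4 libraries (log2 change -1.59 ± 0.13 (SE), adjusted p = 4.59e-07). KRT19, a further keratin of simple epithelia, rose from 16, 15 and 18.1 to 47, 49.4 and 43.9 FPKM (log2 change 1.46 ± 0.29 (SE), adjusted p = 0.000762). The groups did not overlap in any of the 3. The annotated loci of KRT8 (chr12:53290971-53343738, minus strand) and KRT18 (chr12:53342655-53346690, plus strand) overlap at their ends in GRCh37, and whether strand was used in computing the FPKM is not given in the sources used here. Of 13 tested keratins 5 rose and 3 fell. The count of 5 became 3 without siCHD4 replicate 1, siCHD4 replicate 2 or control replicate 1, 2 after quantile normalization, 1 with the 5 FPKM filter, and 8 in the fit on the 6 libraries alone or with library weights, and the list's median of 0.51 turned to -0.53 with that filter and -0.01 with no filter. Over 17 tested colon markers 8 rose and 5 fell (3 without siCHD4 replicate 0), and their summed level, most of which KRT8 and KRT18 hold, was 1919 to 2009 FPKM in the control libraries and 1163 to 1219 FPKM in the siCHD4 libraries.

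Of 62 Wnt pathway genes listed 42 were tested, of which 23 were called higher and 1 lower, with a median of 0.47. Here too a member near 0 in the control libraries passes the filter mainly where it is high. SW48 is known for active Wnt signalling, which was not tested here, and the pathway induces some genes as its own brakes. AXIN2, a feedback inhibitor of the pathway, stood at 271, 277 and 305 FPKM in the control libraries and 448, 442 and 444 FPKM in the siCHD4 libraries (log2 change 0.64 ± 0.11 (SE), adjusted p = 0.000345). NOTUM, an enzyme that inactivates secreted Wnt proteins, had 98.3, 101 and 120.0 FPKM in the control libraries and 225, 218 and 220.2 FPKM in the siCHD4 libraries (log2 change 1.05 ± 0.23 (SE), adjusted p = 0.0016). NKD1, another feedback inhibitor, had 9.17, 8.97 and 10.1 FPKM in the control libraries and 26.6, 20.8 and 25.4 FPKM in the siCHD4 libraries (log2 change 1.27 ± 0.22 (SE), adjusted p = 0.000277). TCF7L2, the transcription factor that acts with beta-catenin in the gut, had 6.53, 9.16 and 8.14 FPKM in the control libraries and 26.4, 18.3 and 26.2 FPKM in the siCHD4 libraries (log2 change 1.46 ± 0.26 (SE), adjusted p = 0.00039). CD44, a hyaluronan receptor and Wnt target, had 15.7, 18.9 and 15.5 FPKM in the control libraries and 44.4, 37.6 and 44.8 FPKM in the siCHD4 libraries (log2 change 1.29 ± 0.14 (SE), adjusted p = 5.57e-06). In all 5 genes the groups were apart. The Wnt gene called lower, TNFRSF19 (-0.52), was named after its values were seen.

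MYC, a Wnt target that drives cell growth, went the other way, with 95.9, 94.9 and 99.3 FPKM in the control libraries and 47.6, 47.7 and 44.6 FPKM in the siCHD4 libraries (log2 change -1.04 ± 0.18 (SE), adjusted p = 0.000322). SOX9, a transcription factor of crypt cells, stood at 30.1, 36.6 and 33.8 FPKM in the control libraries and 94.2, 65.9 and 94.5 FPKM in the siCHD4 libraries (log2 change 1.30 ± 0.24 (SE), adjusted p = 0.00048). Both genes had groups that did not overlap, and within the siCHD4 group SOX9 was lowest in replicate 1.

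Of 37 Notch and hedgehog genes listed 24 were tested, of which 10 rose (41.7%) and none fell. Between 0.5 and 5 FPKM in the control libraries 38.7% of all tested genes rose. The count of 10 became 18 in the fit on the 6 libraries alone or with library weights, 16 with no filter and 6 with the 5 FPKM filter. The filter limits it as it does the count of matrix genes. NOTCH1, a receptor, stood at 8.95, 9.45 and 11.2 FPKM in the control libraries and 30.7, 23.9 and 31.3 FPKM in the siCHD4 libraries (log2 change 1.44 ± 0.20 (SE), adjusted p = 4.95e-05). NOTCH3, a second receptor, reached 2.93, 1.53 and 2.51 FPKM from 0.275, 0.460 and 0.539 FPKM (log2 change 1.20 ± 0.18 (SE), adjusted p = 0.000119), and JAG1, a ligand, rose from 14.6 to 30.2 FPKM (log2 change 1.00 ± 0.08 (SE), adjusted p = 4.74e-07). HES1, a repressor that Notch induces, stood at 83.7, 88.3 and 85.7 FPKM in the control libraries and 103, 118 and 96.7 FPKM in the siCHD4 libraries (log2 change 0.30 ± 0.10, adjusted p = 0.027). Its call did not hold without siCHD4 replicate 0 or 1 or control replicate 0 or 2 (adjusted p = 0.0526 to 0.121).

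Of 40 tested MAPK feedback and immediate early genes 21 rose and 2 fell. EGR1, an immediate early transcription factor, stood at 29.6, 35.7 and 35.6 FPKM in the control libraries and 142, 97 and 136 FPKM in the siCHD4 libraries (log2 change 1.85 ± 0.32 (SE), adjusted p = 0.000267). FOS, a subunit of AP-1, stood at 23.7, 22.3 and 22.9 FPKM in the control libraries and 53.1, 55.5 and 50.4 FPKM in the siCHD4 libraries (log2 change 1.17 ± 0.13 (SE), adjusted p = 1.05e-05). Those 2 rose with no overlap, while the 2 that fell were MYC and IER5, an immediate early response gene with 66.5, 68.5 and 76.6 FPKM in the control libraries and 24.4, 23.5 and 23.8 FPKM in the siCHD4 libraries (log2 change -1.52 ± 0.09 (SE), adjusted p = 2.54e-08). In the fit on the 6 libraries alone 5 fell, and with library weights 7.

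Among TGF-beta and BMP genes 19 of 44 tested rose and 6 fell (3 without siCHD4 replicate 2 or control replicate 0, 10 in the fit on the 6 libraries alone or with library weights). TGFB1, the ligand, rose from 8.99 to 23.8 FPKM (log2 change 1.30 ± 0.18 (SE), adjusted p = 5.05e-05). BAMBI, a decoy receptor, fell from 633 to 339 FPKM (log2 change -0.90 ± 0.08 (SE), adjusted p = 1.13e-06). MDK, midkine, a growth factor of embryos and tumours, stood at 51, 47.6 and 55 FPKM in the control libraries and 169, 191 and 159.6 FPKM in the siCHD4 libraries (log2 change 1.74 ± 0.11 (SE), adjusted p = 3.8e-08). HOX genes, which set position along the body axis, rose in 19 of 30 tested cases and none fell, with a median of 0.52 (12 rose with the 5 FPKM filter). In all 39 were listed, and the filter limits this count as it does that of the matrix genes. HOXA3 stood at 1.81, 1.78 and 1.64 FPKM in the control libraries and 5.35, 4.64 and 6.85 FPKM in the siCHD4 libraries (log2 change 1.26 ± 0.21 (SE), adjusted p = 0.000226), HOXB5 at 2.42, 2.53 and 2.23 and 8.39, 4.47 and 8.18 FPKM, and the abundant HOXB9 at 43.6, 49.3 and 50.3 and 87.7, 72.4 and 83.2 FPKM (log2 change 0.75 ± 0.13 (SE), adjusted p = 0.000259). The groups did not overlap in any of these HOX genes, and siCHD4 replicate 1 was lowest of its group in each.

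**Figure D2:**
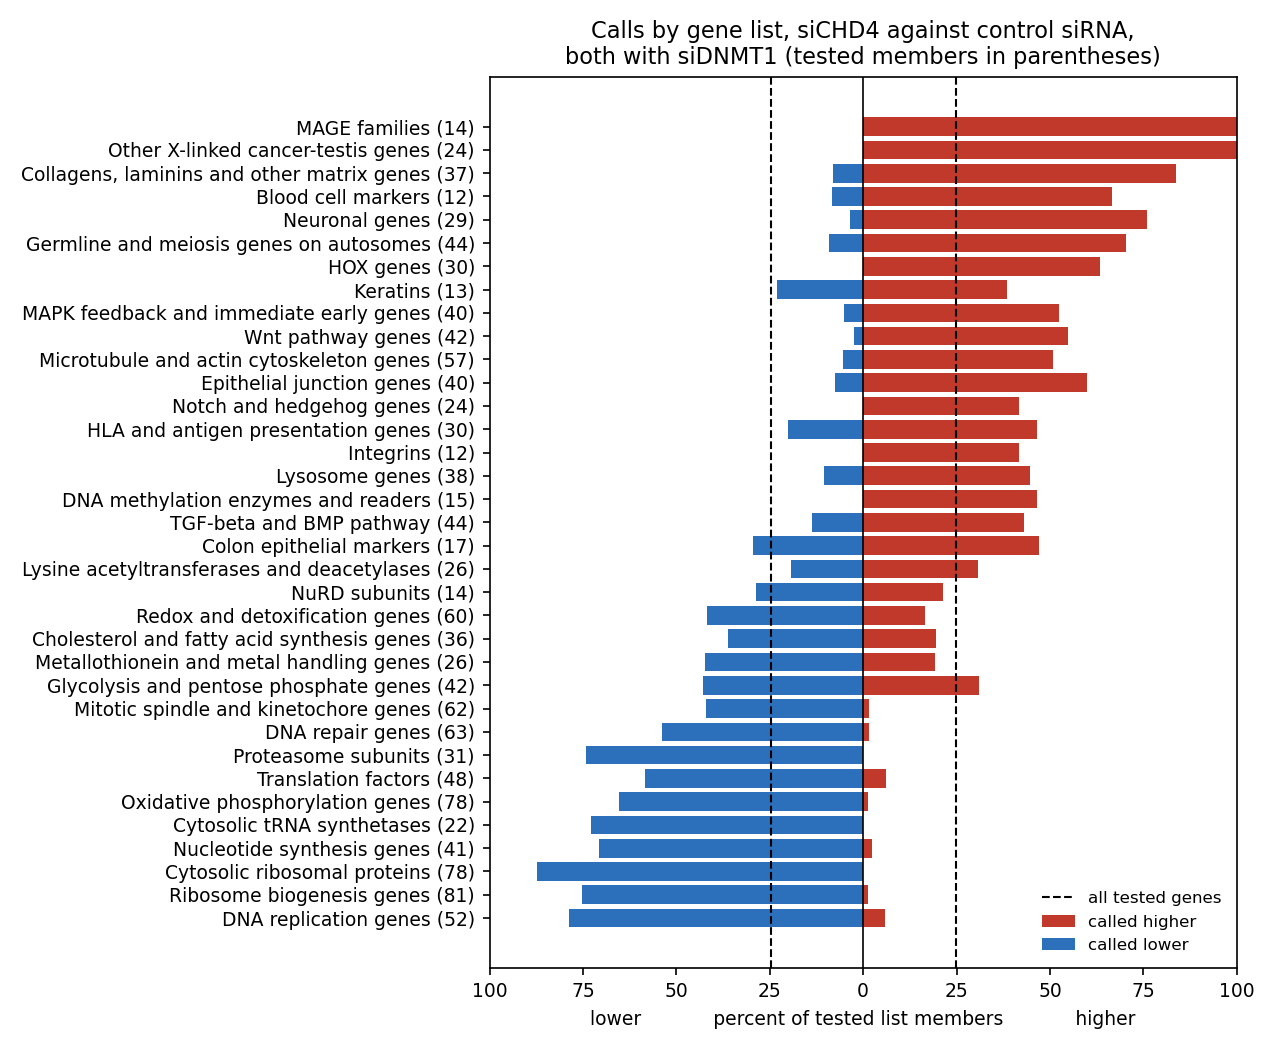
Percent of tested members called higher (red, right) and lower (blue, left) in the gene lists named in the text with at least 10 tested members, ordered by their median change, with the percent over all tested genes as dashed lines. Cancer-testis, matrix and HOX genes lie far to the right, and ribosomal, replication, proteasome and respiratory genes to the left.

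The genes that make ribosomes and proteins fell together. Of 78 tested cytosolic ribosomal protein genes 68 fell and none rose, with a median of -0.62. RPS18, of the small subunit, stood at 6755, 6232 and 6245 FPKM in the control libraries and 3131, 3529 and 3164 FPKM in the siCHD4 libraries (log2 change -0.97 ± 0.16 (SE), adjusted p = 0.000188). RPL22, of the large subunit, stood at 187, 190.0 and 182 FPKM in the control libraries and 101, 117 and 105 FPKM in the siCHD4 libraries (log2 change -0.79 ± 0.08 (SE), adjusted p = 3.17e-06). Neither had overlapping groups, and ribosomal protein genes have many processed pseudogenes that can share their reads. The summed FPKM of the list was 148282 to 158127 in the control libraries and 94365 to 108072 in the siCHD4 libraries. The FPKM total over all genes, given above, was also lower in the siCHD4 libraries. After quantile normalization the median stayed negative at -0.20, and 21 of the 78 fell. The background at that level is itself high, since 50.2% of all tested genes with a control mean of at least 100 FPKM fell.

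Of 81 ribosome biogenesis genes 61 fell, with a median of -0.64. WDR12, which acts in maturation of the large subunit, stood at 47.1, 45.1 and 41.9 FPKM in the control libraries and 19.3, 21.9 and 18.7 FPKM in the siCHD4 libraries (log2 change -1.12 ± 0.15 (SE), adjusted p = 3.54e-05). GNL3, nucleostemin, stood at 175, 170.4 and 157 FPKM in the control libraries and 73.6, 89.7 and 77 FPKM in the siCHD4 libraries (log2 change -1.06 ± 0.15 (SE), adjusted p = 6.08e-05). The 1 that rose, POLR1A, the largest subunit of RNA polymerase I, was named after its values were seen (0.36); it was not called without siCHD4 replicate 0 or 2 or control replicate 0 (adjusted p = 0.0651 to 0.0759), and its sign turned to -0.02 once length and GC trends were removed.

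Translation factors fell in 28 of 48 tested cases and rose in 3, with a median of -0.46 (-0.24 after quantile normalization, where 6 rose). EIF3L, a subunit of the eIF3 initiation complex, stood at 291, 279 and 273 FPKM in the control libraries and 137, 143 and 133 FPKM in the siCHD4 libraries (log2 change -1.02 ± 0.08 (SE), adjusted p = 2.1e-07). EIF3K, another subunit, stood at 236, 222 and 239.6 FPKM in the control libraries and 92.6, 117 and 105 FPKM in the siCHD4 libraries (log2 change -1.15 ± 0.19 (SE), adjusted p = 0.000181). The 3 that rose were EEF1A2, a tissue-restricted elongation factor (7.23 to 14.9 FPKM; log2 change 0.95 ± 0.12 (SE), adjusted p = 2.13e-05), and EIF1 and PABPC1 (0.88 and 0.61), named after their values were seen. PABPC1 was not called without siCHD4 replicate 0 or 2 or control replicate 0 or 2 (adjusted p = 0.0619 to 0.115). Of 22 cytosolic tRNA synthetases 16 fell and none rose, with a median of -0.56.

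In mitochondria, 51 of 78 tested oxidative phosphorylation genes fell, with a median of -0.52 (-0.31 once length and GC trends were removed, -0.33 after quantile normalization). ATP5G2, a subunit of ATP synthase, stood at 137, 139 and 129 FPKM in the control libraries and 57.8, 70.4 and 55.6 FPKM in the siCHD4 libraries (log2 change -1.13 ± 0.17 (SE), adjusted p = 7.66e-05). MRPL32, a protein of the mitochondrial ribosome, stood at 158, 160.5 and 144 FPKM in the control libraries and 58, 70.8 and 62.8 FPKM in the siCHD4 libraries (log2 change -1.26 ± 0.11 (SE), adjusted p = 5.08e-07). The 1 respiratory gene that rose was COX6B2, the testis form of a cytochrome oxidase subunit, named after its values were seen (0.796 to 3.40 FPKM, 1.28). Of 31 proteasome subunits 23 fell and none rose, with a median of -0.44. PSMB5, a catalytic subunit, stood at 227, 214 and 210.0 FPKM in the control libraries and 105, 119 and 106 FPKM in the siCHD4 libraries (log2 change -0.98 ± 0.16 (SE), adjusted p = 0.000231). With length and GC trends removed 14 subunits fell and 2 rose, and after quantile normalization 15 fell and 2 rose.

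DNA replication genes fell in 41 of 52 cases, with a median of -0.70, the lowest of the lists described here. PRIM1, the catalytic subunit of primase, stood at 26.3, 26.4 and 23.4 FPKM in the control libraries and 13, 14.6 and 12.7 FPKM in the siCHD4 libraries (log2 change -0.87 ± 0.09 (SE), adjusted p = 4.67e-06). The 3 that rose, named after their values were seen, were ORC4, POLD4 and POLE (0.59, 0.88 and 0.29). POLE was not called without siCHD4 replicate 0 or control replicate 0 (adjusted p = 0.051 and 0.0591), and its sign turned to -0.09 once length and GC trends were removed. Of 41 nucleotide synthesis genes 29 fell, and CDA, cytidine deaminase, rose (0.83, named after its values were seen).

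Of 63 tested DNA repair genes 34 fell, with a median of -0.38. NTHL1, a glycosylase that removes oxidized pyrimidines, stood at 32.6, 31.2 and 33.2 FPKM in the control libraries and 11.1, 11.5 and 10.2 FPKM in the siCHD4 libraries (log2 change -1.48 ± 0.17 (SE), adjusted p = 1.01e-05). UNG, which removes uracil from DNA, stood at 99.6, 96.2 and 94.4 FPKM in the control libraries and 45.6, 51.3 and 46.2 FPKM in the siCHD4 libraries (log2 change -1.01 ± 0.10 (SE), adjusted p = 1.9e-06). EXO1, an exonuclease of mismatch repair, stood at 34.4, 30.8 and 29 FPKM in the control libraries and 13.7, 15.3 and 14.9 FPKM in the siCHD4 libraries (log2 change -1.05 ± 0.10 (SE), adjusted p = 2.37e-06). In PRIM1, NTHL1, UNG and EXO1 the groups were apart. FANCC, the 1 repair gene that rose (0.25, named after its values were seen), was not called with any of siCHD4 replicates 0 and 2 and control replicates 0 and 1 left out (adjusted p = 0.113 to 0.139), nor with length and GC trends removed (0.13, adjusted p = 0.237), after quantile normalization (adjusted p = 0.097), with the replicate block (adjusted p = 0.0624) or with no filter (adjusted p = 0.0508).

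Of the 14 tested NuRD subunits 3 rose (21.4%) and 4, CHD4 among them, fell (28.6%), shares near those over all tested genes. CHD3, the paralog that can take the place of CHD4 in the complex, stood at 3.85, 4.40 and 4.24 FPKM in the control libraries and 12, 10.1 and 10.9 FPKM in the siCHD4 libraries (log2 change 1.21 ± 0.18 (SE), adjusted p = 9.6e-05). GATAD2B, a scaffold subunit, rose to 10.8, 7.10 and 10.1 FPKM from 3.08, 3.69 and 3.62 FPKM (log2 change 1.20 ± 0.24 (SE), adjusted p = 0.000918), and its paralog GATAD2A rose by 0.32 (0.08 and not called with length and GC trends removed, adjusted p = 0.416). HDAC1, a deacetylase subunit, stood at 117, 109 and 109.6 FPKM in the control libraries and 72.5, 76.5 and 72.4 FPKM in the siCHD4 libraries (log2 change -0.59 ± 0.08 (SE), adjusted p = 2.74e-05). RBBP7, a histone-binding subunit, fell from 130.2 to 92.3 FPKM (log2 change -0.49 ± 0.07 (SE), adjusted p = 8.28e-05). HDAC2 had 63.3, 65.2 and 60.9 FPKM in the control libraries and 48.9, 54.3 and 50.9 FPKM in the siCHD4 libraries (log2 change -0.29, adjusted p = 0.0414), and it was not called after quantile normalization (-0.09, adjusted p = 0.575) or median-ratio rescaling (-0.26, adjusted p = 0.065), or without siCHD4 replicate 0 or 2 or any one control replicate (adjusted p = 0.0602 to 0.126). After quantile normalization 5 subunits rose, and the list's median of -0.02 was 0.01 after median-ratio rescaling, 0.11 after quantile normalization and 0.02 without control replicate 2.

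Of 15 tested DNA methylation enzymes and readers 7 rose and none fell, with a median of 0.27 (0.16 after quantile normalization). They include DNMT3A, a de novo methyltransferase (16.5, 14.3 and 17.1 FPKM in the control libraries and 25.3, 25.7 and 25.6 FPKM in the siCHD4 libraries; log2 change 0.65 ± 0.12 (SE), adjusted p = 0.000556). ZBTB4, a reader of methylated DNA, rose from 6.37 to 15.3 FPKM (log2 change 1.14 ± 0.13 (SE), adjusted p = 1.13e-05), and TET1, which oxidizes methylcytosine, from 0.433 to 1.09 FPKM (log2 change 0.55; not called after quantile normalization, adjusted p = 0.171). In 3 alternatives (length and GC trends removed, library weights, the fit on the 6 libraries alone) 2 of the list fell. Of 26 tested acetyltransferases and deacetylases 8 rose (14 with library weights) and 5 fell. EP300, an acetyltransferase of enhancers, stood at 3.75, 5.69 and 5.29 FPKM in the control libraries and 15.6, 9.39 and 14.2 FPKM in the siCHD4 libraries (log2 change 1.24 ± 0.23 (SE), adjusted p = 0.000535), and its paralog CREBBP at 4.47, 5.78 and 5.73 FPKM in the control libraries and 14.3, 10.1 and 14.9 FPKM in the siCHD4 libraries (log2 change 1.14 ± 0.19 (SE), adjusted p = 0.000208). Both were lowest in siCHD4 replicate 1 within their group, which still lay above each control library. SIRT2, an NAD-dependent deacetylase, stood at 23.5, 22.9 and 25 FPKM in the control libraries and 10.04, 11.5 and 10.4 FPKM in the siCHD4 libraries (log2 change -1.09 ± 0.11 (SE), adjusted p = 2.27e-06).

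Antigen presentation genes rose in 14 of 30 tested cases and fell in 6, with a median of 0.35. The count of 6 was 3 without siCHD4 replicate 0 and 2 without siCHD4 replicate 2 or control replicate 0. HLA-B, a class I heavy chain, stood at 188, 183 and 193 FPKM in the control libraries and 324, 329 and 325 FPKM in the siCHD4 libraries (log2 change 0.79 ± 0.08 (SE), adjusted p = 3.17e-06). CD74, the invariant chain of class II, stood at 0.920, 0.929 and 0.894 FPKM in the control libraries and 3.94, 4.72 and 4.41 FPKM in the siCHD4 libraries (log2 change 1.48 ± 0.12 (SE), adjusted p = 3.65e-07). The groups did not overlap in either gene. PSMB8, a subunit of the immunoproteasome, fell from 67.8 to 48.5 FPKM (log2 change -0.48 ± 0.11 (SE), adjusted p = 0.00228). MICA, a stress ligand for killer cells, had 33.7, 27.7 and 32.3 FPKM in the control libraries and 20.04, 23.1 and 20.6 FPKM in the siCHD4 libraries (log2 change -0.53, adjusted p = 0.0232; not called without siCHD4 replicate 0 or 2 or control replicate 0 or 2, adjusted p = 0.0623 to 0.0798).

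Of 60 tested redox and detoxification genes 10 rose (16 after quantile normalization or in the fit on the 6 libraries alone) and 25 fell. Of 42 tested glycolysis and pentose phosphate genes 13 rose and 18 fell. PDK1, a kinase that switches off pyruvate dehydrogenase, stood at 9.30, 8.78 and 8.49 FPKM in the control libraries and 2.65, 2.68 and 3.00 FPKM in the siCHD4 libraries (log2 change -1.38 ± 0.13 (SE), adjusted p = 9.97e-07). PDK4, a kinase with the same substrate, stood at 1.15, 1.33 and 1.03 FPKM in the control libraries and 8.71, 7.63 and 7.68 FPKM in the siCHD4 libraries (log2 change 2.06 ± 0.29 (SE), adjusted p = 6.38e-05). TXN, thioredoxin, stood at 862, 795 and 748 FPKM in the control libraries and 334, 376 and 348 FPKM in the siCHD4 libraries (log2 change -1.18 ± 0.20 (SE), adjusted p = 0.000218). GPX3, a secreted glutathione peroxidase, stood at 0.729, 0.583 and 0.491 FPKM in the control libraries and 8.08, 5.12 and 6.71 FPKM in the siCHD4 libraries (log2 change 2.24 ± 0.16 (SE), adjusted p = 9.88e-08). So the pairs PDK1 with PDK4 and TXN with GPX3 had opposite changes, with no overlap in any of the 4. HSPB1, a small heat shock protein, rose from 75.2 to 200.2 FPKM (log2 change 1.40 ± 0.21 (SE), adjusted p = 9.16e-05).

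Of 26 tested metal-handling genes 5 rose and 11 fell. HEPH, a copper oxidase that helps export iron from the gut, stood at 2.24, 1.97 and 2.25 FPKM in the control libraries and 12.3, 12.9 and 13.5 FPKM in the siCHD4 libraries (log2 change 2.14 ± 0.14 (SE), adjusted p = 5.3e-08). The ferritin chains FTH1 and FTL, which store iron and have many pseudogenes, rose from 401 to 721 FPKM (0.85) and from 1005 to 1579 FPKM (0.65). Among those that fell were the metallothioneins MT1E (98.6 to 51 FPKM, -0.97) and MT2A (92.9 to 62.6 FPKM, -0.56) and the siderophore-binding LCN2 (7.89 to 2.57 FPKM, -1.32).

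The direction of change went with the level in the control libraries. Among 369 tested genes with a control mean under 0.5 FPKM 287 rose and none fell, a class that the filter makes one-sided. The reverse class, with a siCHD4 mean under 0.5 FPKM, held 81 tested genes, of which 19 fell. With no filter 1888 of 7100 genes under 0.5 FPKM in the control libraries rose (31 fell), and 66 of 6256 genes under 0.5 FPKM in the siCHD4 libraries fell. Between 0.5 and 5 FPKM 38.7% of 3413 genes rose and 6.83% fell. Between 20 and 100 FPKM 12.2% of 3632 rose and 41.3% fell, and at 100 FPKM or more 5.9% of 865 rose and 50.2% fell.

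The direction also went with transcript composition. In the quintile of tested genes with the lowest GC share 9% rose and 34% fell (median -0.20), and in the quintile with the highest 40.3% rose and 10.1% fell (median 0.25). By transcript length the shares that rose ran from 17% in the shortest quintile to 33% in the longest quintile, and those that fell from 29.7% to 17%. Taken library by library, as deviations from the mean of the 6, the slope per 10 points of GC was -0.13, -0.14 and -0.05 in the control libraries and 0.14, 0.07 and 0.11 in the siCHD4 libraries. The slopes of the groups did not overlap, and siCHD4 replicate 1 had the smallest of its group in GC and in length. Removing such trends from each library, an alternative chosen after seeing the data, left 3254 genes higher and 2929 lower of 12391, and the CHD4 change was -1.44. The part of length and GC in the single-gene results was not tested beyond that.

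**Figure D3:**
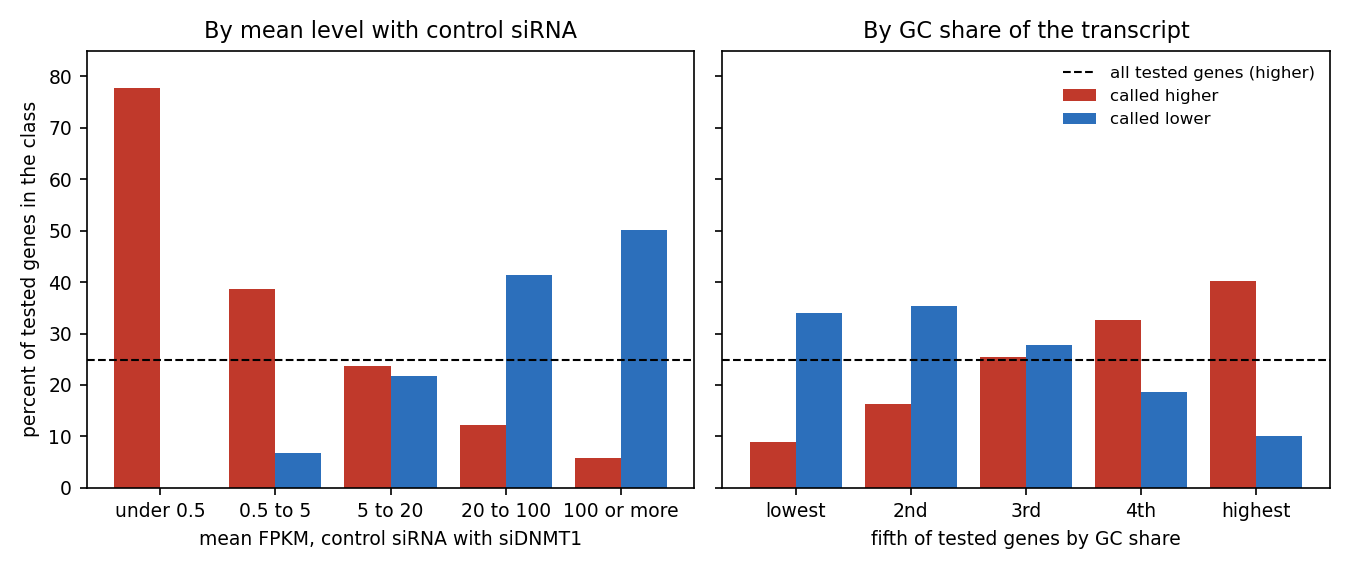
Percent of tested genes called higher (red) and lower (blue), by mean FPKM in the control libraries (left) and by quintile of transcript GC share (right), with the percent higher over all tested genes as a dashed line. The share called higher falls from 77.8% under 0.5 FPKM to 5.9% at 100 FPKM or more, and rises from 9% to 40.3% across the GC quintiles.

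Calls were also counted by chromosome. Of 400 tested genes on the X chromosome 137 rose (34.2%) and 85 fell (21.2%), beside 24.8% and 25.2% over all 12271 tested genes with a GRCh37 location. Of its 40 tested genes with a control mean under 0.5 FPKM 38 rose, beside 266 of 337 such genes over all chromosomes, in a class that the filter makes one-sided. These 40 are among the 400 and the 337 among the 12271. The limit therefore bears on the 34.2% above and on the next count too. Of its 400 tested genes 16 rose by at least 2 on the log2 scale, beside 68 of 12271. Many of these are the cancer-testis genes above. FLNA and HEPH, described above, also lie there (chrX:153576892-153603002 and chrX:65382513-65488709).

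The siCHD4 effect with siDNMT1 was set beside that in the other backgrounds, which share neither control libraries nor schedule with it. Of the 3175 genes called higher here 990 (31.2%) were also called higher with siCHD4 alone, which is 80.7% of the 1227 called there (9.58% of those tested), and 395 (12.4%) with decitabine, 94.5% of the 418 called there (3.26%). For genes called lower, 1035 (32.9%) were also lower alone, 83.2% of 1244 (9.71% of those tested), and 142 (4.51%) with decitabine, 84.5% of 168 (1.31%). Genes called in opposite directions numbered 11 and 5 against siCHD4 alone and 2 and 3 against decitabine. CHD4 itself changed by -1.01 alone and by -0.46 with decitabine, and its change with siDNMT1 was larger in size than with decitabine (difference -0.77, adjusted p = 0.0289; 0.0526 to 0.0656 without any one of 9 of the 12 libraries in that test) but not detectably different from that alone (difference -0.23, adjusted p = 0.561).

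The test of the difference itself called 528 genes against siCHD4 alone (4.12%; 363, or 2.83%, with a more positive and 165, or 1.29%, with a more negative effect here) and 1076 against decitabine (8.4%; 533, or 4.16%, and 543, or 4.24%). These counts rest heavily on single libraries. Against siCHD4 alone the count was 320 without siCHD4 with siDNMT1 replicate 0, 333 without its replicate 2, 332 and 343 without control with siDNMT1 replicate 0 or 1, 346 and 2557 without siCHD4 alone replicate 0 or 2, 343 and 329 without control alone replicate 0 or 1, and 912 without control with decitabine replicate 0. In that last library 1 fragment is worth 2.11 more on the log2 scale than in control with siDNMT1 replicate 0. Against decitabine it was 308 and 370 without siCHD4 with siDNMT1 replicate 0 or 2, 343 and 359 without control with siDNMT1 replicate 0 or 1, and 643 and 320 without siCHD4 with decitabine replicate 0 or 2.

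MAGEB2, VCX, SOHLH1, S100A7 and HCLS1 were not called higher with siCHD4 alone (log2 changes 0.00, 0.00, 0.08, 0.00 and 0.03), and the differences from that background were 3.44, 3.61, 2.62, 3.18 and 3.09. With decitabine they rose by 2.14, 2.15, 1.59, 1.86 and 2.17. The adjusted p-values of the differences from siCHD4 alone were 4.19e-05, 2.88e-08, 0.000389, 1.7e-06 and 5.43e-07. CLDN6 differed from both: its change was 0.19 alone and 0.02 with decitabine, with differences of 2.39 (adjusted p = 2.52e-05) and 2.56 (adjusted p = 9.16e-05). COL9A3 showed the same order, with 0.08 alone, 0.29 with decitabine and differences of 1.63 (adjusted p = 4.54e-05) and 1.41 (adjusted p = 0.000844). CD74 changed by -0.07 alone and 0.23 with decitabine, with differences of 1.55 (adjusted p = 4.54e-05) and 1.25 (adjusted p = 0.00139). Neither CD74 difference was called with a pseudocount of 0.1 (adjusted p = 0.0729 and 0.11).

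Among genes that fell, GJA1 changed by 0.07 alone and 0.01 with decitabine, with differences of -0.98 (adjusted p = 0.00537) and -0.92 (adjusted p = 0.011). EIF3L changed by -0.15 and -0.48, with differences of -0.87 (adjusted p = 0.000188) and -0.54 (adjusted p = 0.0134). PRIM1 changed by -0.03 and -0.25, with differences of -0.84 (adjusted p = 0.00108) and -0.63 (adjusted p = 0.0134). The initiation factor and the primase subunit thus had a more negative siCHD4 effect here than in either other background. With length and GC trends removed the differences from decitabine were not called for GJA1 (adjusted p = 0.0587) and PRIM1 (adjusted p = 0.0593), nor was that of GJA1 with a pseudocount of 0.1 (adjusted p = 0.0758).

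IFITM1, an interferon-induced membrane protein, changed sign between backgrounds. It had 54, 52.8 and 53.5 FPKM in the control libraries and 37.5, 39.1 and 29.9 FPKM in the siCHD4 libraries (log2 change -0.59, adjusted p = 0.0234), while with siCHD4 alone its change was 1.04 (adjusted p = 0.00236; difference -1.62, adjusted p = 0.00266). Its fall here was not called after quantile normalization, with length and GC trends removed, or without siCHD4 replicate 2 or any one control replicate (adjusted p = 0.0514 to 0.103). For other genes no difference between backgrounds was detected. HEPH changed by 2.23 alone (difference -0.09, adjusted p = 0.847) and LAMA3 by 1.21 alone and 1.13 with decitabine (differences 0.01 and 0.08, adjusted p = 0.975 and 0.663), which does not show the effects to be equal.

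**Figure D4:**
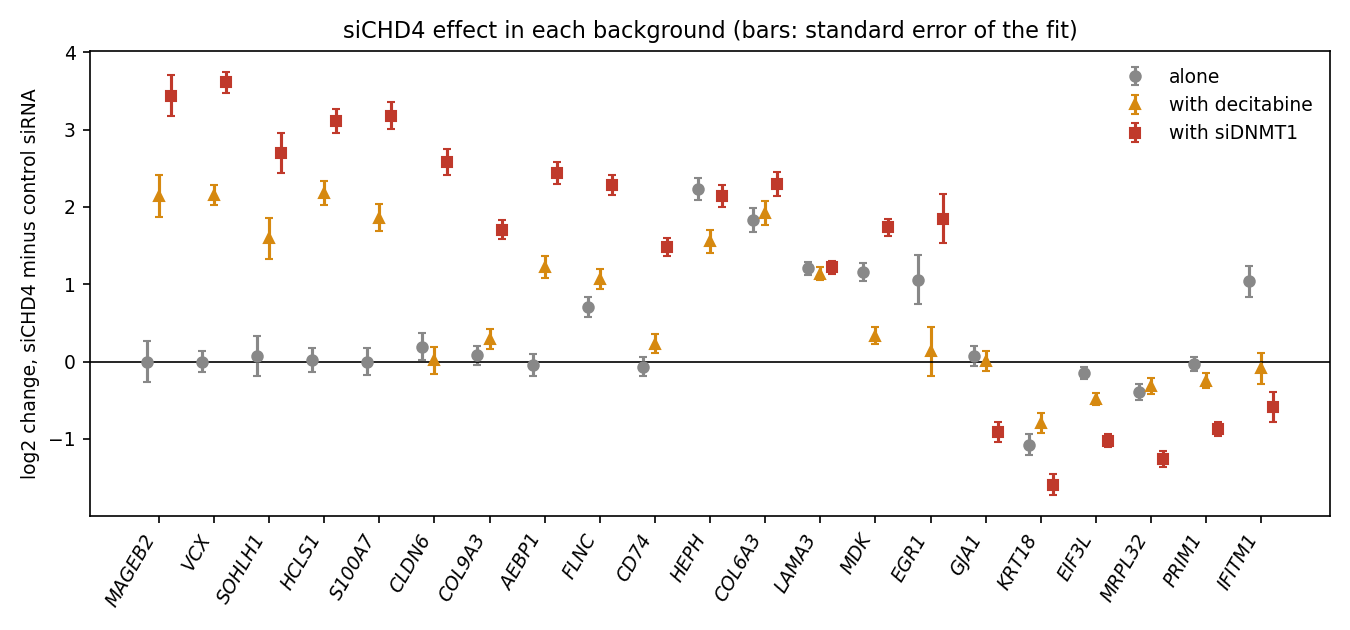
Log2 change with siCHD4 against its own control siRNA for 21 genes, alone (grey circles), with decitabine (orange triangles) and with siDNMT1 (red squares), with bars of 1 standard error. MAGEB2, VCX and S100A7 lie at 0 alone and highest with siDNMT1, CLDN6 rises only in the siDNMT1 background among the 3, and HEPH and LAMA3 lie close together.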

How the data were processed

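The table holds FPKM per gene for 18 RNA sequencing libraries, 6 of them compared here. Per the labels, they were made from total RNA with a stranded kit that removes ribosomal RNA. Per the submitters' processing notes, TopHat2 2.0.9, Cuffdiff 2.1.1 and the hg19 build were used. For the annotation and the use of strand in counting, the sources used here give nothing. The deposited FPKM values were not rescaled. Read counts were not used, so no counting intervals are given, and the depth of a library is known only relative to another. Of 23599 entries 28 (0.119%) have dates for names and were left out.

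Values were taken as log2(FPKM + 1), where the log2 step and the pseudocount of 1 were added to the authors' values. Genes that reached 1 FPKM in 3 or more libraries (12809 of 23571) were fitted with limma 3.58.1 in R 4.3.3, 1 mean per group over all 18 libraries (12 residual degrees of freedom, moderated with a trend in the mean level), and p-values were adjusted by Benjamini-Hochberg over all tested genes. The fit was tested on simulated data. Alternatives were another pseudocount (0.1), filters of 5 FPKM and none, median-ratio rescaling, quantile normalization, a replicate block, library weights, the compared libraries alone, each left-out library, and removal of length and GC trends.

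Groups and replicate numbers come from the titles. Members and gene lists were chosen with earlier results of these data known, and the lists were written from general knowledge. Named genes are CHD4 and DNMT1, the largest called changes without overlap of the groups (also among genes of at least 20 FPKM), the highest means among genes that rose from or fell to under 0.5 FPKM, members of the lists with the smallest p or highest level (any member of a list of up to 30), and the smallest p of the differences between backgrounds. Others are marked as named after their values were seen. GRCh37 locations come from GENCODE and matched 12271 tested genes. Promoter windows come from RefSeq on GRCh38.p14, a different build.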

Additional observations from a re-analysis of the deposited data

Results flagged for a closer look

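For 60 of the genes named above or below, the test of the difference between siCHD4 effects called the effect with siDNMT1 different from that in another background. The schedules of the backgrounds differ too. CHD4 itself fell more here than with decitabine (difference -0.77, a call not kept under each left-out library). Neither can be told apart from the background. Values are differences of log2 changes, positive where the effect with siDNMT1 was the more positive. Of the 39 calls against siCHD4 alone 23 held under each alternative and left-out library, and of the 51 against decitabine 19 held.

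Against siCHD4 alone 24 differences were positive. Germ cell genes among them were VCX (3.61), MAGEB2 (3.44), VCX3A (3.40), SOHLH1 (2.62), SSX1 (2.15), GTSF1 (2.06) and TEX101 (2.05). TKTL1 (4.44) is a member of the list of other X-linked cancer-testis genes above. Genes of other tissues were S100A7 (3.18), HCLS1 (3.09), CLDN6 (2.39), DYDC2 (2.06), HBE1 (1.73), UCHL1 (1.40) and EEF1A2 (0.95). Matrix, adhesion and cytoskeleton genes were AEBP1 (2.48), COL9A3 (1.63), FLNC (1.58), COL1A1 (1.33) and ITGA7 (1.11). GPX3 (1.93), CD74 (1.55), HOXA3 (1.11) and NOTCH3 (1.00) were the others. The 15 negative differences held genes of replication, repair and translation, namely EIF3L (-0.87), MRPL32 (-0.87), PRIM1 (-0.84), RPS18 (-0.84), UNG (-0.67), EXO1 (-0.64) and RPL22 (-0.57). They also held IFITM1 (-1.62), GJA1 (-0.98), MEIOB (-0.83), STMN1 (-0.81), ACAT2 (-0.74), S100A4 (-0.73), SIRT2 (-0.65) and THBS1 (-0.50). Over whole lists, a more negative effect was called for 9 of 52 replication genes and 6 of 63 repair genes. It was called for 3 of 78 ribosomal protein genes, 3 of 48 translation factors and 0 of 81 ribosome biogenesis genes, beside 1.29% of all tested genes. The call against siCHD4 alone was lost under at least 1 alternative or left-out library for SSX1, HBE1, DYDC2, MEIOB, COL1A1, THBS1, FLNC, ITGA7, S100A4, NOTCH3, HOXA3, SIRT2, CD74, RPS18, RPL22 and EXO1.

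Against decitabine 32 differences were positive. Germ cell genes were TEX19 (1.97), VCX3A (1.92), TEX101 (1.52), VCX (1.46), SSX1 (1.39) and MAGEB2 (1.30). Genes of the matrix, junctions and cytoskeleton were CLDN6 (2.56), COL9A3 (1.41), MYL9 (1.34), PPL (1.32), FLNC (1.22), AEBP1 (1.22), ITGA7 (1.17) and COL1A1 (0.89). Signalling genes and regulators were EGR1 (1.72), HOXA3 (1.46), MDK (1.40), HOXB5 (1.27), TGFB1 (1.07), NOTCH3 (1.00), CREBBP (0.91), ZBTB4 (0.87) and FOS (0.68). The rest were TKTL1 (1.56), DYDC2 (1.46), S100A7 (1.32), CD74 (1.25), TM7SF2 (1.11), HSPB1 (1.01), HCLS1 (0.94), UCHL1 (0.67) and HLA-B (0.56). CHD4 itself had a difference of -0.77. The other negative differences were those of PDK1 (-0.996), ACAT2 (-0.98), CENPK (-0.98), MRPL32 (-0.95), GJA1 (-0.92), GNL3 (-0.92), S100A4 (-0.89), KRT18 (-0.80), EXO1 (-0.75), SIRT2 (-0.71), IER5 (-0.70), BAMBI (-0.66), PRIM1 (-0.63), UNG (-0.61), EIF3L (-0.54), THBS1 (-0.46), RPL22 (-0.44) and HDAC1 (-0.37). The call against decitabine was lost under at least 1 alternative or left-out library for CHD4, MAGEB2, VCX, TEX101, HCLS1, S100A7, DYDC2, TEX19, COL1A1, AEBP1, THBS1, MYL9, ITGA7, GJA1, KRT18, NOTCH3, EGR1, FOS, BAMBI, TGFB1, HOXB5, HDAC1, ZBTB4, CREBBP, CD74, RPL22, GNL3, UNG, PRIM1, HSPB1, CENPK and UCHL1.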

How the results depend on the processing

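Counts of genes called higher and lower (3175 and 3148) ranged from 2121 to 4647 and from 2902 to 4720 over the alternatives, and with 1 library left out from 2543 to 3511 and from 2479 to 3650. The change of CHD4 ran from -1.44 (length and GC trends removed) to -1.11 (quantile normalization), and from -1.28 to -1.18 with 1 library left out (adjusted p = 5.7e-06 to 7.87e-05). Genes with a different siCHD4 effect numbered 528 against siCHD4 alone, and 219 with the 5 FPKM filter, 1093 with no filter, 317 with a pseudocount of 0.1 and 6144 with library weights (320 to 2557 with 1 library left out). Against decitabine they numbered 1076, and 1906 in the fit on the compared libraries alone, 693 with a pseudocount of 0.1, 692 with the replicate block and 5626 with library weights (308 to 1475 with 1 library left out). The cause was not tested.

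Of 129 called genes named here other than CHD4, 109 kept direction and call under each alternative and left-out library, and 20 lost the call in at least 1. Signs turned for POLR1A (-0.017) and POLE (-0.087) with length and GC trends removed. DNMT1, not called, turned to 0.036 with library weights and 0.0097 after median-ratio rescaling, and ran from -0.080 to 0.044 with 1 library left out. Medians turned for Keratins (-0.53 with the 5 FPKM filter, -0.014 with none), for NuRD subunits (0.0067 after median-ratio rescaling, 0.11 after quantile normalization, -0.061 to 0.020 with 1 library left out) and for neural and glial markers (-0.055 with length and GC trends removed).

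Samples sharing a number had residual correlations of -0.03, 0.00061 and -0.06 (-0.03 to 0.06 for other numbers). No likeness of libraries sharing a number was seen, but so few values cannot exclude a pairing. With the replicate block 3090 genes were higher, 3044 lower, 403 differed in effect from siCHD4 alone, CHD4 changed by -1.24 (adjusted p = 4.13e-05), and 3 named genes lost their call.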

Other observations

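Of 85 neuronal genes listed, which no marker list above holds as a set, 29 were tested. Of these 22 rose and 1 fell, with a median log2 change of 0.70 (12 rose with the 5 FPKM filter and 42 with no filter, where the median was 0.20). As with the cancer-testis genes, members near 0 in the control libraries pass the filter mainly through the libraries in which they are high. UCHL1, a ubiquitin hydrolase abundant in neurons, stood at 3.26, 2.23 and 3.09 FPKM in the control libraries and 8.64, 8.46 and 10.3 FPKM in the siCHD4 libraries (log2 change 1.40 ± 0.13 (SE), adjusted p = 1.19e-06). L1CAM, an adhesion protein of axons, stood at 0.257, 0.212 and 0.295 FPKM in the control libraries and 2.82, 1.68 and 2.30 FPKM in the siCHD4 libraries (log2 change 1.37 ± 0.21 (SE), adjusted p = 0.000103). The member called lower was STMN1, stathmin, a microtubule regulator of dividing cells as well, at 335, 334 and 301 FPKM in the control libraries and 206, 248 and 222 FPKM in the siCHD4 libraries (log2 change -0.52 ± 0.10 (SE), adjusted p = 0.000493). With length and GC trends removed STMN1 was not called (-0.16, adjusted p = 0.142). Genes of the mitotic spindle and kinetochore fell in 26 of 62 tested cases and rose in 1, with a median of -0.33 (-0.13 once length and GC trends were removed). The share that fell, 41.9%, was near the 41.3% of all tested genes with a control mean between 20 and 100 FPKM. In the fit on the 6 libraries alone 45 of them fell, and with library weights 41 fell and 8 rose, while 4 rose without siCHD4 replicate 1. CENPK, a kinetochore protein, stood at 17.7, 18.9 and 14.8 FPKM in the control libraries and 6.94, 7.63 and 7.43 FPKM in the siCHD4 libraries (log2 change -1.12 ± 0.18 (SE), adjusted p = 0.000148). MAD2L1, of the spindle checkpoint, stood at 109, 109 and 93 FPKM in the control libraries and 47.7, 63.5 and 54.3 FPKM in the siCHD4 libraries (log2 change -0.90 ± 0.16 (SE), adjusted p = 0.000329). MKI67, the proliferation antigen Ki-67, was the 1 called higher (22.3 to 35.4 FPKM, 0.64, named after its values were seen). It was not called with length and GC trends removed, or without siCHD4 replicate 0 or 2 or control replicate 0.

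TKTL1, a transketolase-like protein of the X chromosome (chrX:153524148-153558700, GRCh37), stood at 0.520, 0.286 and 0.404 FPKM in the control libraries and 29.8, 31.4 and 29.7 FPKM in the siCHD4 libraries (log2 change 4.48 ± 0.22 (SE), adjusted p = 1.92e-09). Its change was 0.04 with siCHD4 alone and 2.92 with decitabine. TKTL1 is counted above both with the other X-linked cancer-testis genes and with the glycolysis and pentose phosphate genes. Genes of cholesterol and fatty acid synthesis were called higher in 7 of 36 tested cases and lower in 13, with a median of -0.21. In the fit on the 6 libraries alone or with library weights these counts were 11 and 20, and with length and GC trends removed 3 were higher. ACAT2, which joins acetyl groups early in sterol synthesis, stood at 49.9, 51.2 and 48.3 FPKM in the control libraries and 16.6, 18.7 and 18 FPKM in the siCHD4 libraries (log2 change -1.44 ± 0.11 (SE), adjusted p = 1.19e-07). TM7SF2, a sterol reductase of the same route, stood at 15.3, 13.6 and 13.8 FPKM in the control libraries and 45.7, 47.9 and 45.5 FPKM in the siCHD4 libraries (log2 change 1.64 ± 0.15 (SE), adjusted p = 9.13e-07). Of 38 tested lysosome genes 17 rose and 4 fell, with a median of 0.27 (7 fell in the fit on the 6 libraries alone and 10 with library weights). The cathepsins CTSZ and CTSC changed in opposite directions, from 49.8 to 82.5 FPKM (0.72) and from 46.7 to 27.3 FPKM (-0.76).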
